A study of Homo sapiens with 6 samples.

Results

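The genes described here are the 10 cyclins, cyclin-dependent kinases (CDKs) and CDK inhibitors that act in G1: the D cyclins CCND1, CCND2 and CCND3, their kinases CDK4 and CDK6, the E cyclins CCNE1 and CCNE2, their kinase CDK2, and the inhibitors CDKN1B (p27) and CDKN2C (p18). They were chosen by name, for their known function and with earlier results of these data known, from a table of 17721 genes. All 10 are in the table, and all 10 were among the 13003 genes with enough counts to be tested. The cells were MDA-MB-231BR, a brain-tropic derivative of the human triple-negative breast cancer line MDA-MB-231. One group stably expressed a short hairpin RNA (shRNA) against ACSS2, the enzyme that makes acetyl-CoA from acetate in the cytosol and nucleus, and the other a control shRNA. Both hairpins were brought in with lentivirus packaged in HEK-293T cells, followed by antibiotic selection, so both groups carry a vector. Each group had 3 libraries, which the labels call biological replicates and number 1 to 3 with a batch tag shared between the groups. The labels give neither the hairpin sequences nor their number, and do not say whether the replicates came from separate infections.

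In G1, D cyclins switch on CDK4 and CDK6, which phosphorylate the retinoblastoma protein and release E2F transcription factors. E2F in turn raises the E cyclins, which activate CDK2 and carry the cell into S phase. CDKN2C belongs to the INK4 inhibitors, which bind CDK4 and CDK6, while CDKN1B belongs to the CIP/KIP family, which blocks cyclin E with CDK2 and can also sit on cyclin D complexes. CCND1 is frequently overexpressed in breast cancer, and CDK4 and CDK6 are drug targets in that disease.

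The promoters of the members that rose with ACSS2 shRNA are shown because these 3 genes moved the same way. Each window runs from 250 bases before to 50 bases after an annotated start in RefSeq (GRCh38.p14), and 6 of the 10 members had an entry: CCND3, CDK4, CDK6, CCNE1, CDKN1B and CDKN2C. CCND1 and CDK2, which fell, had no entry, so the genes that rose could not be set beside them. For CDK6, which has entries for more than one start, the window at the outer start is given, and the other window (chr7:92833910-92834209) holds no match to the motifs below. Capitals mark matches on either strand to 6 motifs: E2F (TTTCCCGC, TTTGGCGC, TTTCGCGC or TTTGCCGC), the E-box CACGTG, AP-1 (TGACTCA), FOXO (TGTTTAC), the CCAAT box and the GC box (GGGCGG). The sequences are given 5′ to 3′ on the strand of the gene.
CDKN1B, chr12:12717118-12717417, plus strand: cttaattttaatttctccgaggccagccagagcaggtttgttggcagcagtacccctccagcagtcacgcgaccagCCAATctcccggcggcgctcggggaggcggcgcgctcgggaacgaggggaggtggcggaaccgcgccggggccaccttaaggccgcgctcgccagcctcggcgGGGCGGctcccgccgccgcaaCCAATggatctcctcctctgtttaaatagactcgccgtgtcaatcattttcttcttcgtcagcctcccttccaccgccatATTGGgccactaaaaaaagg
CCNE1, chr19:29811741-29812040, plus strand: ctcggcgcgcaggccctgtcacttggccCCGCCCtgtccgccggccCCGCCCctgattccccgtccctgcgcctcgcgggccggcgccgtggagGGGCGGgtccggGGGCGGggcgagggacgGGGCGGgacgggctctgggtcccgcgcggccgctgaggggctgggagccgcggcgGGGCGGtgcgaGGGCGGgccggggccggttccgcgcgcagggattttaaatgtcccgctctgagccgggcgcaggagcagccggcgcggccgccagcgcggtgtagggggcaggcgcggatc
CDK6, chr7:92836524-92836823, minus strand: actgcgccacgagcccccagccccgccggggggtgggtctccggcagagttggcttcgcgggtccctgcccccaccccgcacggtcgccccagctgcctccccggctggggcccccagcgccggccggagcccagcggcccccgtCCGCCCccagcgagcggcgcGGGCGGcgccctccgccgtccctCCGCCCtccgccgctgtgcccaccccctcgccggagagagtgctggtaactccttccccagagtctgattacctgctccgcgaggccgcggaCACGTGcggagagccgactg
The CDKN1B window holds 3 CCAAT boxes and 1 GC box, the CCNE1 window 7 GC boxes, and the CDK6 window 1 E-box and 3 GC boxes. Among all 35116 promoter windows of that table, 34.6% hold a CCAAT box, 45.0% a GC box and 7.3% an E-box. The E2F letters stand in 3.3% of all windows, AP-1 in 4.9% and FOXO in 3.4%, and none of these is in the 3 windows shown. Members that were not called hold such matches too. The CDK4 window holds 3 E-boxes and 3 GC boxes, and single windows of CCND3 and CDKN2C hold up to 5 and 6 GC boxes. CCAAT boxes stand in windows of CCND3 and CDKN2C, a FOXO match in a CCND3 window and E-boxes in CDKN2C windows. A match of letters is a description of the sequence and does not show binding. Only these exact letters were searched, so a window without a match may still hold a variant site.

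ACSS2 itself, the targeted gene, had 11.1, 50.5 and 88.7 CPM (counts scaled by library size with TMM factors) in ACSS2 shRNA libraries 1, 2 and 3, against 76.3, 71.2 and 164 CPM in control libraries 1, 2 and 3. The library labelled ACSS2 shRNA 3 lay above control libraries 1 and 2, so the groups overlapped, but within each replicate number ACSS2 shRNA was lower. Its log2 fold change was -1.31 with the replicate number as a block (edgeR adjusted p = 0.00757) and -1.05 without it (adjusted p = 0.504), and DESeq2 with the block did not call it (-1.38, adjusted p = 0.129). With the block it was -0.70 without replicate 1 and -1.80 without replicate 2, and with single libraries left out and no block it ranged from -1.75 (without ACSS2 shRNA 3) to -0.56 (without control 3). Total counts were between 15048275 and 18608124 per library. All 8 MDA-MB-231 markers exceeded 1 TPM (a level scaled by transcript length and library size) in at least 1 library, with VIM at up to 6820 TPM. Of the 9 luminal markers 7 exceeded 1 TPM in at least 1 library. Their maxima were 472 for KRT18, 42.9 for ERBB2, 23.1 for FOXA1, 6.37 for ERBB3, 4.39 for EPCAM, 3.66 for GATA3 and 1.21 TPM for ESR1. PGR and CDH1 stayed at or below 0.240 and 0.05 TPM. The luminal list summed to 287 to 465 TPM in ACSS2 shRNA and 255 to 528 TPM in control libraries. Summed fibroblast markers were 9.26 to 19.2 TPM in ACSS2 shRNA and 4.99 to 6.54 TPM in control libraries (COL1A1 at up to 18.0 TPM), and summed leukocyte markers were 3.62 to 7.23 TPM in ACSS2 shRNA and 1.37 to 4.12 TPM in control libraries. Endothelial markers summed to 7.93 to 13.8 TPM in ACSS2 shRNA and 3.89 to 9.15 TPM in control libraries, while neural markers summed to 31.6 to 76.6 TPM in ACSS2 shRNA and 41.7 to 95.0 TPM in control libraries. Among the neural markers MBP reached 73.6 and RBFOX3 21.3 TPM, and SNAP25 was at 0. The part of these markers in the results was not tested.

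In the test that takes the replicate number as a block, CCND1 and CDK2 fell, and CDK6, CCNE1 and CDKN1B rose. Among the D cyclins, their kinases, the E cyclins and the inhibitors, only one gene of each passed. CCND1 fell 2.06-fold and CDK2 1.29-fold, while CDK6 rose 1.75-fold, CDKN1B 1.66-fold and CCNE1 1.47-fold. CCND2, CCND3, CDK4, CCNE2 and CDKN2C did not pass that test. Thus 3 members were called higher, where 12.7% of all genes tested were, and 2 lower, where 12.4% were. Together 5 of 10 members were called, against 25.1% of all genes. The members were chosen with earlier results of these data known. Their counts beside shares of all genes are therefore a description and no test of enrichment. In CPM, the same 5 genes had no overlap between the 3 ACSS2 shRNA and the 3 control libraries, a pattern that 20.3% of all genes tested showed. Without the block, the edgeR quasi-likelihood test called 0 members, where it called 0.0692% of all genes (9 genes). These 5 members had an unadjusted p under 0.05 in that fit, as did 14.0% of all genes. Without the block, DESeq2 called 1 member, CCND1, and limma on log2 TPM called 0. The median log2 fold change of the 10 members was -0.08 with the block and -0.12 without, against 0.02 for all genes in both fits.

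**Figure D1:**
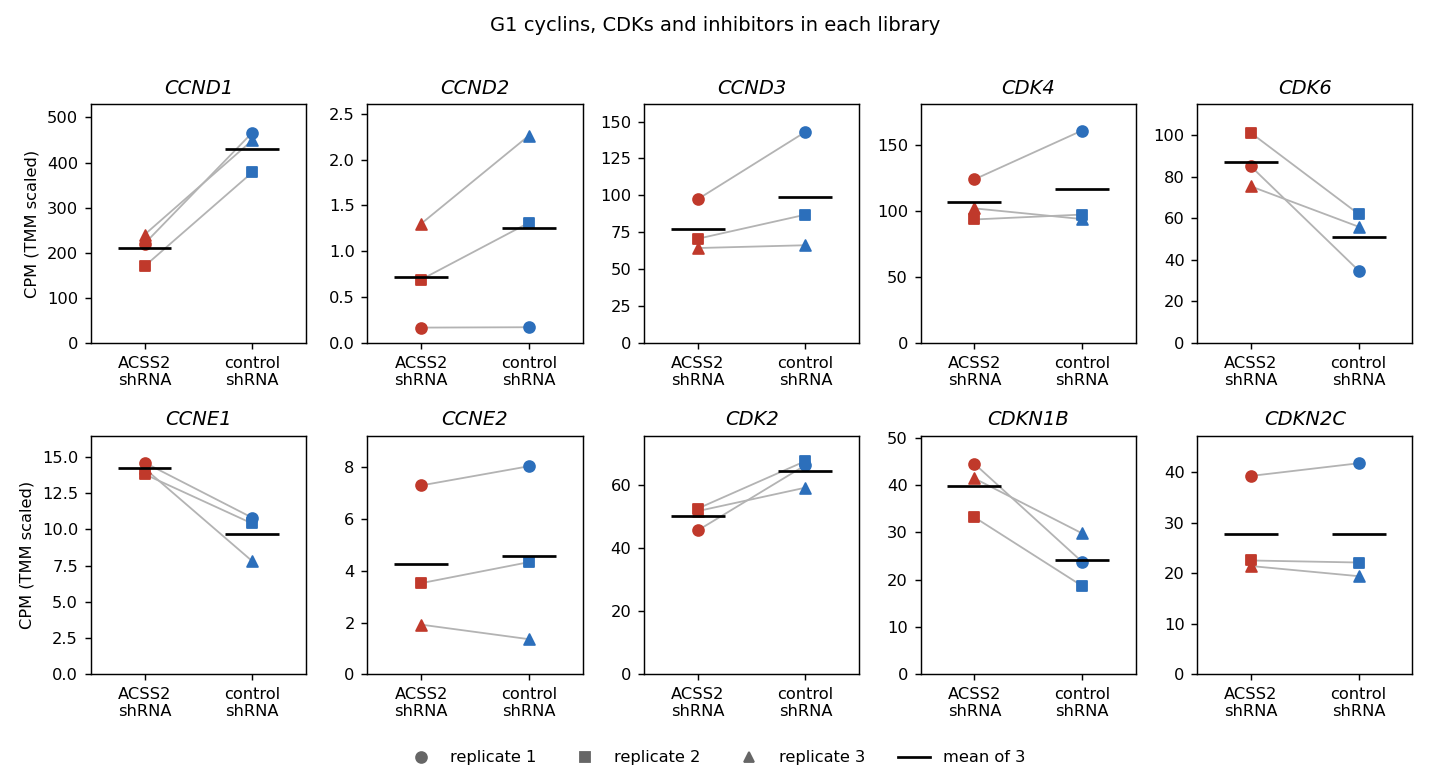
Level of each of the 10 genes in CPM (TMM scaled, linear axes from 0) in the 3 ACSS2 shRNA libraries (left, red) and the 3 control libraries (right, blue). Symbols give the replicate number, grey lines join libraries with the same number and black bars are means of 3. CCND1 and CDK2 are lower, and CDK6, CCNE1 and CDKN1B higher, in all ACSS2 shRNA than in all control libraries.

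CCND1 encodes cyclin D1, the D cyclin through which growth factor signals most often reach CDK4 and CDK6. It lies on chromosome 11 (GRCh38, 69641087 to 69654474, plus strand, band 11q13.3). Its level was 220, 170 and 240 CPM in ACSS2 shRNA libraries 1, 2 and 3, against 466, 378 and 449 CPM in control libraries 1, 2 and 3. The highest ACSS2 shRNA library thus stood far below the lowest control library. The means were 210 ± 35.7 CPM in ACSS2 shRNA and 431 ± 46.8 CPM in control cells (SD, n = 3 each). The log2 fold change was -1.04 in both fits, with an SE of 0.12 and edgeR adjusted p = 0.000133 with the block, and an SE of 0.19 and adjusted p = 0.0926 without it. Within the replicate numbers 1, 2 and 3 the log2 difference was -1.08, -1.15 and -0.91. CCND1 was the member with the smallest p in both fits, and in the authors' deposited table it had a log2 fold change of -1.06 with q = 0.000344, the one member there with q under 0.05.

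The other D cyclins did not pass either test. CCND3, which many cell types use beside or in place of cyclin D1, had 97.4, 70.6 and 64.3 CPM in ACSS2 shRNA and 143, 86.9 and 66.2 CPM in control libraries. ACSS2 shRNA was below control within each number, but library 1 was the highest of its group in both, and the groups overlapped. Its log2 fold change was -0.30 with the block (SE 0.12, edgeR adjusted p = 0.0860) and -0.35 without (adjusted p = 0.644), and it passed with the block only when replicate 3 was left out (-0.43, adjusted p = 0.0385). CCND2 was close to the detection limit, with 3, 11 and 21 counts in ACSS2 shRNA and 3, 23 and 35 counts in control libraries. Its log2 fold change was -0.76 with the block (SE 0.38, adjusted p = 0.159), and no difference was detectable at this depth.

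CDK4 and CDK6 are the kinases that D cyclins activate, and are close relatives. CDK6 (chromosome 7, 92604921 to 92836594, minus strand, band 7q21.2) had 84.9, 101 and 75.3 CPM in ACSS2 shRNA libraries, against 34.8, 62.0 and 55.9 CPM in control libraries. Every ACSS2 shRNA library was above every control library, and control library 1 was the lowest of the 6. The means were 87.2 ± 13.1 CPM in ACSS2 shRNA and 50.9 ± 14.3 CPM in control cells (SD, n = 3 each). The log2 fold change was 0.81 with the block (SE 0.15, edgeR adjusted p = 0.00215) and 0.78 without (SE 0.24, adjusted p = 0.211). It was 1.28 in number 1, 0.71 in number 2 and 0.43 in number 3. CDK4 had 124, 93.6 and 102 CPM in ACSS2 shRNA and 161, 97.3 and 93.9 CPM in control libraries. Its libraries overlapped, and its log2 fold change was -0.10 with the block (SE 0.12, adjusted p = 0.568), while the value on log2 TPM (limma, same block) was 0.01.

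CCNE1 and CCNE2 encode the E cyclins, the partners of CDK2 at the start of S phase and known E2F targets. CCNE1 (chromosome 19, 29811898 to 29824308, plus strand, band 19q12) had 14.6, 13.8 and 14.2 CPM in ACSS2 shRNA libraries, against 10.8, 10.4 and 7.81 CPM in control libraries. The ACSS2 shRNA libraries lay close together and all above control, with means of 14.2 ± 0.411 CPM in ACSS2 shRNA and 9.67 ± 1.62 CPM in control cells (SD, n = 3 each). The log2 fold change was 0.56 with the block (SE 0.16, edgeR adjusted p = 0.0201) and 0.55 without (SE 0.21, adjusted p = 0.307). The call with the block was lost with DESeq2 (0.54, adjusted p = 0.0670), without replicate 2 (0.60, adjusted p = 0.0594) and without replicate 3 (0.42, adjusted p = 0.134). CCNE2 had 7.29, 3.52 and 1.92 CPM in ACSS2 shRNA and 8.03, 4.33 and 1.36 CPM in control libraries. It followed the replicate number in both groups, and its log2 fold change was -0.05 with the block (SE 0.23, adjusted p = 0.891).

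CDK2, the kinase of both E cyclins and later of cyclin A, lies on chromosome 12 (55966769 to 55972784, plus strand, band 12q13.2). It had 45.5, 52.4 and 51.6 CPM in ACSS2 shRNA libraries, against 66.1, 67.4 and 59.0 CPM in control libraries. The groups did not overlap in CPM, and the difference was the smallest of the 5 called. In TPM they overlapped, with 39.15, 45.02 and 40.24 TPM in ACSS2 shRNA and 49.73, 55.06 and 44.32 TPM in control libraries. The means were 49.9 ± 3.76 CPM in ACSS2 shRNA and 64.2 ± 4.55 CPM in control cells (SD, n = 3 each). The log2 fold change was -0.36 in both fits, with edgeR adjusted p = 0.0356 with the block (SE 0.12) and 0.339 without (SE 0.15). The call with the block ended when replicate 1 (-0.29, adjusted p = 0.0967) or replicate 2 (-0.40, adjusted p = 0.122) was left out. It also ended on log2(TPM + 1) with limma (-0.25, adjusted p = 0.108).

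CDKN1B encodes p27, an inhibitor whose protein level is set largely by degradation, which mRNA counts do not show. It lies on chromosome 12 (12715058 to 12722371, plus strand, band 12p13.1) and had 44.5, 33.2 and 41.4 CPM in ACSS2 shRNA libraries, against 23.8, 18.7 and 29.8 CPM in control libraries. All ACSS2 shRNA libraries were above all control libraries, with number 2 the lowest in each group. The means were 39.7 ± 5.86 CPM in ACSS2 shRNA and 24.1 ± 5.54 CPM in control cells (SD, n = 3 each). The log2 fold change was 0.73 with the block (SE 0.13, edgeR adjusted p = 0.00174) and 0.72 without (SE 0.22, adjusted p = 0.211), and 0.90, 0.82 and 0.47 within the numbers 1, 2 and 3. CDKN2C had 39.2, 22.5 and 21.4 CPM in ACSS2 shRNA and 41.7, 22.1 and 19.4 CPM in control libraries. Here library 1 was the highest of each group, and the log2 fold change between the groups was 0.02 with the block (SE 0.12, adjusted p = 0.920).

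**Figure D2:**
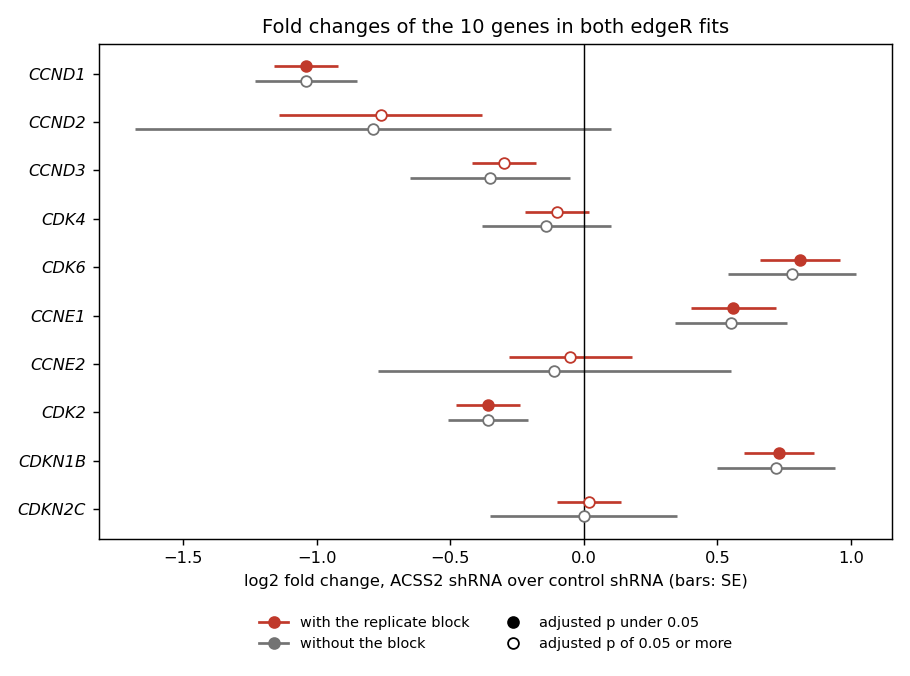
Log2 fold change of each of the 10 genes, ACSS2 shRNA over control shRNA, with its SE, in edgeR with the replicate block (red) and without it (grey). Filled points have an adjusted p under 0.05. The estimates of the 2 fits lie close together, while the bars are shorter with the block, and only with the block are points filled.

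The members also differed in how far they varied between replicate numbers, apart from the hairpin. A test of the replicate number in the fit with the block called 5 of the 10 members, where 38.7% of all genes were called. These were CCND2, CCND3, CDK4, CCNE2 and CDKN2C, with edgeR adjusted p of 0.00155, 0.00199, 0.0123, 0.000374 and 0.000544. They are the same 5 genes that were not called between ACSS2 shRNA and control. CCND3, CDK4, CCNE2 and CDKN2C were highest in library 1 of each group, and CCND2 was lowest there. The other members did not pass, at adjusted p = 0.0917 for CCND1, 0.0826 for CDK6, 0.551 for CCNE1, 0.732 for CDK2 and 0.0543 for CDKN1B. Leaving out replicate 3, whose ACSS2 shRNA library overlapped the controls for ACSS2, gave log2 fold changes with the block of -1.11 for CCND1, 0.99 for CDK6, 0.87 for CDKN1B and -0.45 for CDK2, all still called. Leaving out replicate 1, where ACSS2 differed most, gave -1.03 for CCND1, 0.56 for CDK6, 0.64 for CDKN1B and 0.62 for CCNE1, also still called. Within the numbers 1, 2 and 3 the log2 difference of ACSS2 was -2.76, -0.49 and -0.88, so it was smallest in number 2. Without replicate 2, CCND1 (-1.03), CDK6 (0.82) and CDKN1B (0.66) were still called with the block. CDK2 was not called without replicate 1 (edgeR adjusted p = 0.0967) or without replicate 2 (0.122). CCNE1 was not called without replicate 2 (0.0594) or without replicate 3 (0.134), and CCND3 was called without replicate 3 (0.0385).

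Levels per length were compared between genes in TPM. In ACSS2 shRNA cells the order of the means was CDK4 (102 ± 17.7 TPM), CCND1 (91.8 ± 12.6), CCND3 (73.8 ± 19.4), CDK2 (41.5 ± 3.12), CDKN2C (31.6 ± 10.2), CDKN1B (29.9 ± 4.44), CCNE1 (14.2 ± 0.953), CDK6 (14.0 ± 2.73), CCNE2 (3.12 ± 2.20) and CCND2 (0.203 ± 0.150 TPM, SD, n = 3). In control cells it was CCND1 (175 ± 11.2 TPM), CDK4 (104 ± 30.6), CCND3 (87.3 ± 33.5), CDK2 (49.7 ± 5.37), CDKN2C (29.7 ± 9.01), CDKN1B (16.8 ± 3.30), CCNE1 (9.10 ± 1.60), CDK6 (7.57 ± 2.39), CCNE2 (3.05 ± 2.02) and CCND2 (0.333 ± 0.277 TPM, SD, n = 3). The pairs CDK4 and CCND1, CCND1 and CCND3, CDK2 and CDKN2C, CDKN2C and CDKN1B, and CCNE1 and CDK6 differed by less than the larger SD in ACSS2 shRNA cells. In control cells this held for CDK4 and CCND3, and for CCNE1 and CDK6. CDK4 ranked first of the 10 in ACSS2 shRNA libraries 1 and 2, and CCND1 in ACSS2 shRNA library 3 and in all control libraries.

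The make-up of the cyclin and kinase mRNA within a library is described with no test, since the members were chosen. The 3 D cyclins summed to 195, 146 and 156 TPM in ACSS2 shRNA libraries, against 307, 243 and 236 TPM in control libraries. Summed CDK4 and CDK6 overlapped between the groups, at 137, 109 and 103 TPM in ACSS2 shRNA and 144, 101 and 89.4 TPM in control libraries. The ratio of D cyclins to CDK4 and CDK6 was 1.42, 1.34 and 1.51 in ACSS2 shRNA, against 2.14, 2.41 and 2.64 in control libraries. It fell to 1.43 ± 0.0876 in ACSS2 shRNA cells, against 2.40 ± 0.253 in control cells (SD, n = 3 each), with no overlap. CCND1 made up 51.1%, 52.8% and 63.1% of the D cyclin TPM in ACSS2 shRNA and 59.8%, 66.7% and 75.4% in control libraries, shares that overlapped.

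CDK6 remained the minor kinase in every library. Its share of CDK4 and CDK6 was 10.2%, 15.3% and 10.9% in ACSS2 shRNA libraries, against 3.46%, 9.59% and 9.01% in control libraries. The ratio of CCND1 to CDKN1B, a gene that fell over one that rose, was 2.87, 2.99 and 3.37 in ACSS2 shRNA and 11.4, 11.7 and 8.78 in control libraries. As neither CCND1 nor CDKN1B overlapped between the groups in TPM, that ratio had to be without overlap. The ratio of CDK2 to CDKN1B was 1.13, 1.74 and 1.38 in ACSS2 shRNA and 3.08, 3.99 and 2.18 in control libraries. The E cyclins over CDK2 gave 0.530, 0.371 and 0.362 in ACSS2 shRNA and 0.298, 0.244 and 0.185 in control libraries, also without overlap. The summed E cyclins alone overlapped, at 20.8, 16.7 and 14.6 TPM in ACSS2 shRNA and 14.8, 13.4 and 8.22 TPM in control libraries. The share of CCNE1 in the E cyclins and that of CDKN1B in both inhibitors overlapped too. Each ratio given here includes called members, and is no result separate from their calls. All these ratios and shares are of mRNA, and protein was not measured.

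**Figure D3:**
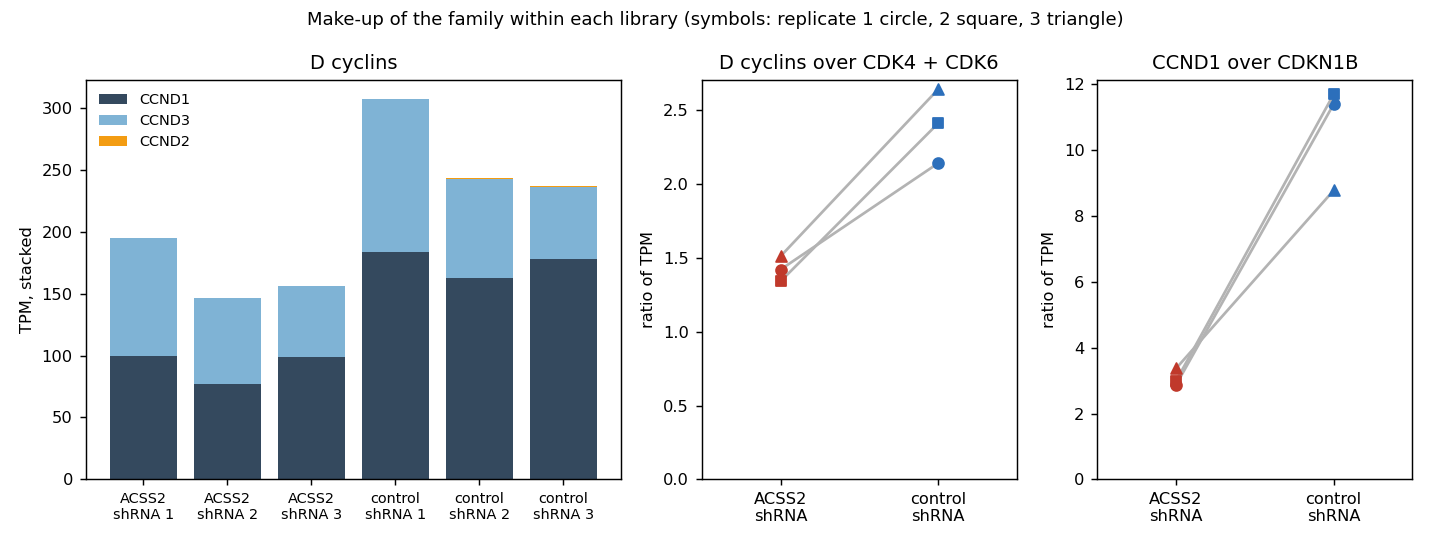
Left, TPM of CCND1, CCND3 and CCND2 stacked in each library. Middle and right, the ratio of summed D cyclins to summed CDK4 and CDK6, and of CCND1 to CDKN1B, per library, with lines joining the same replicate number and axes from 0. Both ratios are lower in all 3 ACSS2 shRNA libraries than in all 3 control libraries.

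Among the inhibitors outside the 10, CDKN1A and CDKN1C, the remaining CIP/KIP genes beside CDKN1B, also rose. CDKN1A (p21) had 185, 177 and 162 CPM in ACSS2 shRNA and 152, 86.8 and 95.3 CPM in control libraries, with no overlap (log2 fold change 0.69 with the block, edgeR adjusted p = 0.00362; adjusted p = 0.261 without the block). Its call with the block ended when replicate 2 was left out (0.49, adjusted p = 0.0685). CDKN1C (p57) had 29.1, 32.6 and 56.5 CPM in ACSS2 shRNA and 16.3, 22.3 and 34.9 CPM in control libraries (0.69, adjusted p = 0.00185 with the block), with overlap between the groups. Of the INK4 genes beside CDKN2C, CDKN2D did not pass with the block (0.28, adjusted p = 0.109). CDKN2A and CDKN2B had 0 counts in all 6 libraries, which allows up to 0.161 to 0.199 CPM per library (3 counts, counting error only). So 2 of the 3 tested inhibitors of that list rose with the block and 0 fell, where 12.7% and 12.4% of all genes tested did. The list was chosen with earlier results of these data known, so this count is a description only.

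Downstream of the D cyclins, 2 of 13 genes for pocket proteins, E2F and DP factors rose and 3 fell with the block, at a median log2 fold change of 0.00. Over all genes tested 12.7% rose and 12.4% fell, so these counts are near the background. RB1, the retinoblastoma protein that CDK4, CDK6 and CDK2 phosphorylate, fell (15.9 ± 1.92 CPM in ACSS2 shRNA and 33.2 ± 10.1 CPM in control cells, SD, n = 3 each; -1.03, edgeR adjusted p = 0.000415). E2F7, a repressor of the E2F family, rose (0.58, adjusted p = 0.00443). Of 14 genes for the turnover of G1 cyclins and p27, 2 rose and 1 fell (median 0.08), again close to the shares over all genes. CKS1B, the cofactor with which SKP2 marks p27 for degradation, fell (-0.89, adjusted p = 0.00145), and UBAC1, a subunit of another ubiquitin ligase for p27, rose (0.47, adjusted p = 0.00958), a call that ended without replicate 2 (0.47, adjusted p = 0.0621).

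The counts of the next lists, all with the block, stand beside 12.7% of all genes tested that rose and 12.4% that fell. They are a description and no test of enrichment. Of 12 upstream regulators of D cyclins and p27, 2 rose and 2 fell (median 0.07). Those that fell were FOXM1, a driver of mitotic genes (-1.10, edgeR adjusted p = 0.000133), and FOSL1, an AP-1 subunit (-0.84, adjusted p = 0.00124). Of 10 genes for CDK activation and inhibitory phosphorylation, 0 rose and 3 fell (median -0.16), including PKMYT1, which holds CDK1 inactive (-1.10, adjusted p = 0.000983), and CDC25C, which activates it (-0.82, adjusted p = 0.00314). Of 13 other cyclins, 2 rose and 0 fell (median 0.17; CCNJ 0.63, adjusted p = 0.0277; CCNL2 0.40, adjusted p = 0.0305). CCNJ was not called with DESeq2 (adjusted p = 0.0729), without replicate 1 (0.144) or without replicate 3 (0.0741), nor CCNL2 with DESeq2 (0.0638), without replicate 2 (0.364) or without replicate 3 (0.0878), all with the block. Of 15 other CDKs tested, 1 rose and 2 fell (median -0.01), the 2 being CDK19, a Mediator kinase (-1.32, adjusted p = 0.000967), and CDK15 (-1.41, adjusted p = 0.0218). CDK15 had 3 to 10 counts in ACSS2 shRNA and 5 to 31 counts in control libraries. With the block it was not called by DESeq2 (adjusted p = 0.181), by limma (-0.38, adjusted p = 0.0585, and -0.92, adjusted p = 0.0577, at the larger and smaller pseudocount) or without replicate 3 (adjusted p = 0.122). Without the block, edgeR called no gene of these lists, while DESeq2 called RB1 (-1.09, adjusted p = 0.00880) and CKS1B (-0.97, adjusted p = 0.0336) among the genes named here.

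Most cyclins of later phases fell. Of the 7 genes for S, G2 and M cyclins and CDK1, 5 fell and 0 rose with the block (median log2 fold change -0.81), among them CCNB2 (-0.94, edgeR adjusted p = 0.000406) and CCNB1 (-0.83, adjusted p = 0.000756). Of 12 proliferation markers, one of them shared with that list (CCNA2), 11 fell and 0 rose (median -0.59). They include CDC6, which loads the replicative helicase (-1.24, adjusted p = 0.000343), and MKI67 (-0.91, adjusted p = 0.000660). MKI67 had 366, 193 and 85.3 CPM in ACSS2 shRNA and 778, 414 and 124 CPM in control libraries. It was lower within each number, and highest in number 1 of both groups. Within number 3 the log2 difference was 0.08 for MCM2 and 0.10 for MCM5. The other called markers were lower there, at -0.02 (MCM4) to -0.65 (CDC6). Over all genes tested 12.4% fell with the block. Without the block, edgeR called 0 genes of either list. With the block, the proliferation markers thus differed between the same groups as the called G1 genes. The part of these markers in the G1 results was not tested. In bulk RNA, fewer cells in a phase and less RNA per cell cannot be told apart.

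**Figure D4:**
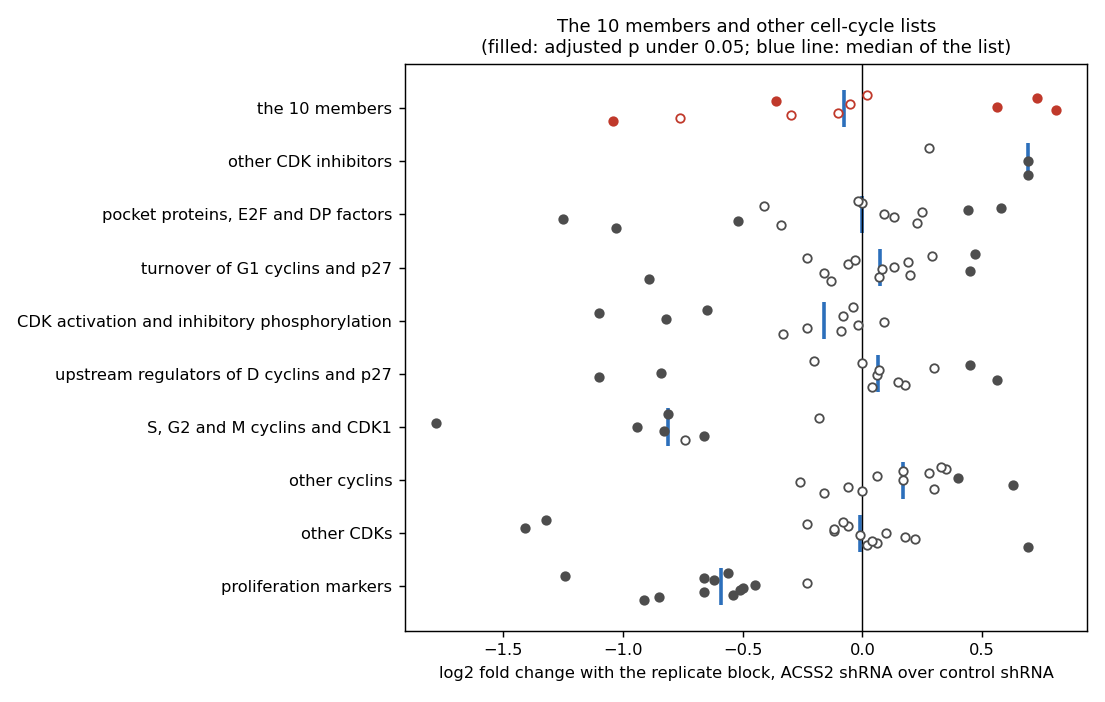
Log2 fold change with the replicate block, ACSS2 shRNA over control shRNA, of the 10 G1 genes (red, top row) and of 9 other lists of cell cycle genes. Filled points have an adjusted p under 0.05 and blue lines are medians. The 10 genes spread to both sides of 0, whereas 11 of 12 proliferation markers and 5 of 7 genes for later cyclins and CDK1 are filled on the left.

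Over the 6 libraries, the gene of the other lists whose log2 CPM was most like each called member was CCNB3 for CCND1 (Pearson r = 0.99), CCNYL1 for CDK6 (0.86) and CCNE1 (0.90), RB1 for CDK2 (0.89) and FOXO4 for CDKN1B (0.95). Each is the highest of 98 genes compared, and the points share the group difference and the replicate numbers. CCNB3 had only 7 to 13 counts in ACSS2 shRNA and 36 to 41 counts in control libraries.

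Exons of several members overlap those of other genes, and whether the counting used strand is not stated, so reads from such stretches cannot be assigned with certainty. In GENCODE v29 the exons of CCND1 share 497 bases with LTO1 on the opposite strand, those of CDK6 share 81 with AC002454.1, and those of CDK2 share 89 with PMEL and 287 with AC025162.1. CDK4 shares 1078 bases with TSPAN31, CCNE2 1628 with INTS8, and CCND2 126 with CCND2-AS1, all on opposite strands, besides 989 with AC008012.1 on its own strand.

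The hexamer TGGGTC, picked with earlier results of these data known, was looked up in the 3′ UTRs (GENCODE v29, GRCh38) of the members, on the strand of the gene. It stands in 41.1% of the 1598 genes called lower with a 3′ UTR, 23.9% of the 1632 called higher and 26.1% of all 12762. Given how the hexamer was picked, these shares are no independent test, and they were not adjusted for 3′ UTR length. Of the 10 members 4 hold it: CCND1 with 1 copy, CCND2 with 2, and CDK6 and CCNE1 with 1 each. Their 3′ UTRs have 3192 (CCND1), 5341 (CCND2), 10219 (CDK6) and 531 (CCNE1) bases. Those of the members without it have 363 (CDKN2C) to 1862 (CCNE2) bases. The sites of the 3 called members are shown with 12 bases on each side and the hexamer in capitals.
CCND1, chr11:69654341-69654370, plus strand: gcggcgggcggcTGGGTCtgtgcatttctg
CDK6, chr7:92615069-92615098, minus strand: cttggtggcttaTGGGTCcccctcagcaag
CCNE1, chr19:29823965-29823994, plus strand: tttttaaataagTGGGTCaagtacaccagc
Of these 3 genes CCND1 fell, while CDK6 and CCNE1 rose, and CDK2, which fell, has no copy. The part of the hexamer in the results was not tested.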

How the data were processed

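RNA from 6 cultures was sequenced at BGI after mRNA enrichment. Reads were processed with HISAT, Bowtie2 and RSEM, per the submitters' processing notes, which give no versions. The annotation used for the table is not stated there, and its chromosome accessions are those of GRCh38. The authors deposited expected counts (estimated reads per gene) and TPM for each library, and their own DESeq2 comparison as a log2 fold change, p-value and q-value. Per library, 10.47% to 13.01% of the deposited expected counts were fractional, and all were rounded. The 6 FPKM columns were not used. Before use, 565 lines of spilled annotation text were dropped and 26 symbols turned into dates were restored by gene ID. Of the gene IDs, 17479 matched a reference table of names.

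Genes were tested with edgeR 4.0.16 (quasi-likelihood F test, R 4.3.3, TMM, filterByExpr with minimum count 10 and minimum total 15), fitted on all 13003 genes with Benjamini-Hochberg adjustment over all of them. A gene was called at an adjusted p under 0.05. A positive log2 fold change means higher in ACSS2 shRNA. SE was obtained by dividing its size by the root of F. The fit was made without and with the replicate number (the batch tag) as an additive block. Deviations from group means correlated by 0.716, 0.494 and 0.740 between libraries of the same number, above the minimum of 0.1 required. The number was therefore used as a block. Between different numbers the deviations correlated by at most -0.01, but deviations from a mean cancel out within each group. Negative values there follow on average from positive values at the same number, and are no separate evidence of pairing. The biological coefficient of variation was 11.8% with the block and 26.6% without. Alternatives were other size factors, no low-count filter, DESeq2 1.42.0, limma 3.58.1 on log2(TPM + 1) and log2(TPM + 0.1), and libraries left out. The script for the tests was tested on simulated data. Named genes are the 10 members, ACSS2, the 2 genes of each other list with the smallest p with the block, and the gene most correlated with each called member. The members and lists were chosen with earlier results of these data known. Other genes named for overlapping exons or cell type markers follow from annotation or marker lists, and CDK4, CDKN2D and the genes at 0 counts were named to account for whole families.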

Additional observations from a re-analysis of the deposited data

How the results depend on the processing

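With the replicate block, CCND1 (-1.11 to -0.93), CDK6 (0.56 to 0.99) and CDKN1B (0.64 to 0.87) were called under all 9 alternatives, CCNE1 (0.42 to 0.65) under 6 and CDK2 (-0.45 to -0.25) under 5. Numbers of members called were 3 higher and 2 lower with the block and 0 and 0 without. DESeq2 without the block called 1 lower. With the block, 1 member was lower with limma at either pseudocount, and 1 to 3 lower and 2 to 3 higher when a replicate was left out, and the cause was not tested. Over all genes, edgeR without the block called 3 higher and 6 lower. These counts were 12 and 27 with no low-count filter, 199 and 288 with DESeq2, 6 higher with limma at either pseudocount, 0 to 1 higher and 0 to 5 lower with libraries left out, and 1657 and 1608 with the replicate block. With the block, leaving out a replicate gave 664 to 1555 higher and 917 to 1554 lower, and limma on TPM gave 2302 higher and 1071 lower, or 2269 and 1055 at the smaller pseudocount. On TPM the median log2 fold change of all genes was 0.11 to 0.12, against 0.02 in edgeR.

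Members near 0 changed sign and were called in none of these. With libraries left out and no block, CCND3 ranged from -0.57 to 0.02, CDK4 from -0.29 to 0.16, CCNE2 from -0.77 to 0.57, CDKN2C from -0.35 to 0.42 and CCND2, which kept its sign, from -1.54 to -0.06. Without the block, CDK4 was 0.01 with limma at either pseudocount, 0.03 without replicate 1 and 0.16 without control replicate 1. CCNE2 was 0.03 and 0.06 with limma, 0.24 without ACSS2 shRNA replicate 3 and 0.57 without control replicate 1, and CCND3 was 0.02 without control replicate 1 too. With the block, CDK4 was 0.01 with limma and 0.03 without replicate 1, CCNE2 was 0.03 and 0.06 with limma, 0.01 without replicate 1 and 0.04 without replicate 2, and CDKN2C was -0.01 without replicate 2 and -0.03 without replicate 3. FPKM in place of TPM for the make-up of the family was not run. Depth limits CCND2, with 3 to 35 counts per library.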
